A study of Homo sapiens with 58 samples.

Results

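Of 151457 regulatory elements (REs) measured by ATAC-seq in cranial neural crest cells, 509 (0.336%) lost accessibility within 3 h of SOX9 depletion and had already lost most of what they would lose when a part of the SOX9 protein was still present. They are called rapid, dosage-sensitive lost REs here. ATAC-seq counts the cuts of a transposase, which enters DNA where no nucleosome covers it, so the reads over a region measure how open its chromatin is. Levels are in CPM, the counts of an RE divided by all counts over REs in its library and scaled to a common total, and differences are on the scale of log2(CPM + 0.5) unless edgeR is named.

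The cells were cranial neural crest cells (CNCCs) at passage 4, derived from the human embryonic stem cell line H9. In the tagged cells, from the 2 clones S9CC13 and S9CC47, SOX9 carried FKBP12-F36V, a protein tag that the small molecule dTAGV-1 binds to send SOX9 to degradation, together with mNeonGreen and V5. Tagged cells had 48 h of 0, 0.5, 1.6, 5, 16 or 500 nM dTAGV-1, which the labels pair with SOX9 levels of 100, 77.9, 51.7, 25.8, 8.14 and 0.95% of untreated cells, in 7 replicates (4 of S9CC13, 3 of S9CC47, each a clone in 1 differentiation). A time course in differentiations R4 and R5 used tagged cells and WT cells, which lack the tag. They had vehicle or 3 h or 24 h of 500 nM dTAGV-1. The vehicle samples are recorded at 24 h, so the 3 h samples are compared with a vehicle of another time. In differentiations R8 and RSh, 4 further WT samples had 0 or 500 nM for 48 h.

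SOX9 is a transcription factor of the SOX family, whose HMG box binds short ACAAAG-like or ACAATG-like words and bends the DNA. It is needed for the neural crest and for cartilage, where it acts with SOX5 and SOX6 on cartilage matrix genes. SOXE proteins such as SOX9 also bind in pairs where such words face each other, and loss of a copy in humans gives a skeletal and facial disorder, which makes the response to a partial loss of the protein a question of its own.

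The 509 REs were chosen by measured values, so those values describe them and test nothing. The rule asked for a mean of at least 2 CPM at 0 nM, a log2 difference between 500 and 0 nM over the 7 replicates (D500) above -2 and at most -1, a difference between 3 h and vehicle over R4 and R5 (D3) of at most -0.5, and at least 0.6 of D500 reached at 5 nM (D5/D500). D500 had a median of -1.33 and D3 of -1.53 over the members. The median D5/D500 was 0.664, 335 members (65.8%) were under 0.7, and 11 were at 0.9 or more. D3 was at or below D500 in 352 members (69.2%), but the 2 values do not compare 3 h with 48 h on equal terms. The rule kept D500 above -2 and set no such bound on D3, which reached -2.98. The starting levels also differed, with library medians of 5.79 to 7.13 CPM in tagged vehicle samples and 2.36 to 4.41 CPM at 0 nM. The members just inside the ratio threshold, an intergenic RE nearest FBXL7 at chr5:15334611-15335111 and an RE in an intron of DNAH10 at chr12:123843018-123843518, had D5/D500 of 0.6001 and 0.6008. The REs just outside it, in an intron of STOX2 at chr4:183968436-183968936 and between genes near CRYBA4 at chr22:27112149-27112649, both had 0.599. At the D500 threshold of -1, an RE nearest SRSF3 (-1.001) lay inside and one nearest EYA4 (-0.999) outside, and at -2 an RE at the start site of EVI5L (-1.998) lay inside and one in an intron of DOCK3 (-2.001) outside. At the D3 threshold, an RE in KCNQ1 (-0.513) lay inside and one nearest DCDC2C (-0.445) outside.

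Most members held a SOX word, and a few held a facing pair. Coordinates are hg38, counted from 1, and sequences are of the plus strand. Windows from 6 members with facing cores, those with the highest CPM at 0 nM, are shown because facing cores are the arrangement a SOX9 dimer binds. Capitals mark the cores, ACAAAG or ACAATG on the left and their reverse complement on the right.
NRP2 intron, chr2:205696782-205696836: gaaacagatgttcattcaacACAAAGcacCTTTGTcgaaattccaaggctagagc
EEIG1 promoter, chr9:127950743-127950798: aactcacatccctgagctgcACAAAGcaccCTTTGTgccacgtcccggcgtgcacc
EDN3 intron, chr20:59318986-59319041: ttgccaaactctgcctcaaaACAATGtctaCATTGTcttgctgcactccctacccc
Intergenic, nearest ZNF518B, chr4:10296973-10297028: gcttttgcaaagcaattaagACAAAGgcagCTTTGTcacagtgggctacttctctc
RUBCNL promoter, chr13:46390062-46390116: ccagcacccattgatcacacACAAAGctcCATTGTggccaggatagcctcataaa
CXXC5 intron, chr5:139677035-139677091: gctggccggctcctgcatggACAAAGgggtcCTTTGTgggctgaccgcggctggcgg

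Most members had no such pair. The windows below, centred on the core nearest the middle of the RE, are from the 5 members with the highest D5/D500, those that had reached the largest share of their own log2 loss by 5 nM. Capitals again mark the cores, and in the UGT2B7 intron 2 cores follow each other directly on the same strand.
Intron of a non-coding gene, nearest ABCA8, chr17:68794061-68794121: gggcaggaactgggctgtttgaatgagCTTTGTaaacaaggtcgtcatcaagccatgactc
ZFHX3 intron, chr16:73000354-73000414: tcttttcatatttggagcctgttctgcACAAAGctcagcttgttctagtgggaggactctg
PC intron, chr11:66913127-66913187: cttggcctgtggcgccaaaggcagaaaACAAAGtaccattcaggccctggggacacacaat
NDE1 promoter, chr16:15672984-15673044: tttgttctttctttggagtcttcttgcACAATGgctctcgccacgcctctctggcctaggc
UGT2B7 intron, chr4:69058047-69058107: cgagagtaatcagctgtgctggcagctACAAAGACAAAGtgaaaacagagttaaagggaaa

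Members fell across the dose series, in most replicates at each step. In untreated tagged cells the library median over the 509 REs ran from 2.36 to 4.41 CPM, with a median of 3.82 over the 7 replicates. With 0.5 nM it ran from 2.32 to 3.97 CPM (median 3.18) and with 1.6 nM from 2.13 to 3.28 CPM (median 2.46). The 5 nM libraries were at 1.28 to 1.81 CPM (median 1.54), below all untreated ones. With 16 nM the range was 1.04 to 1.25 CPM (median 1.2), and full depletion with 500 nM gave 0.928 to 1.42 CPM (median 0.96). In S9CC13 R14, whose 0 and 0.5 nM labels go against its titles, the median was 2.36 CPM in the library titled 0 nM and 2.6 in that titled 0.5 nM. The replicates that differed most at 0 nM lay close together from 16 nM on, with the exception of S9CC47 in differentiation R5, whose 500 nM library, 1 of those the rule used, stood at 1.42 against 0.928 to 0.999 in the other 6. Over all REs the library medians lay between 2.13 and 2.67 CPM in the tagged 48 h groups, and the median replicate had 2.32 CPM untreated and 2.31 at 500 nM, so the members started above the typical RE, as their CPM minimum of 2 favours, and ended below it. Of the members, 355 (69.7%) had under 5 CPM at 0 nM and 11 had 20 or more. Such levels were common among all REs, which had no CPM minimum. The mean CPM at 0 nM had a median of 3.42 and an upper quartile of 5.62 in the members, against 2.365 and 6.23 over all REs. Other REs within the same D500 and CPM limits were more open. Their values were 6.07 and 12.88 in rapid REs under the ratio threshold, and 7.67 and 13.31 in REs with D3 above its threshold. The median D5/D500 was 0.68 in members under 3 CPM and 0.641 in those at 10 CPM or more. With a pseudocount of 1, 340 of the 509 stayed members. The part of the level in D5/D500 was not tested. Total counts, with M for mega, were 22.9 to 75.6 M a library in the dose series, where the median member had 22 to 286 reads in a library. Totals were 43.0 to 62.6 M in the time course and 62.5 to 81.04 M in the WT samples of 48 h.

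**Figure D1:**
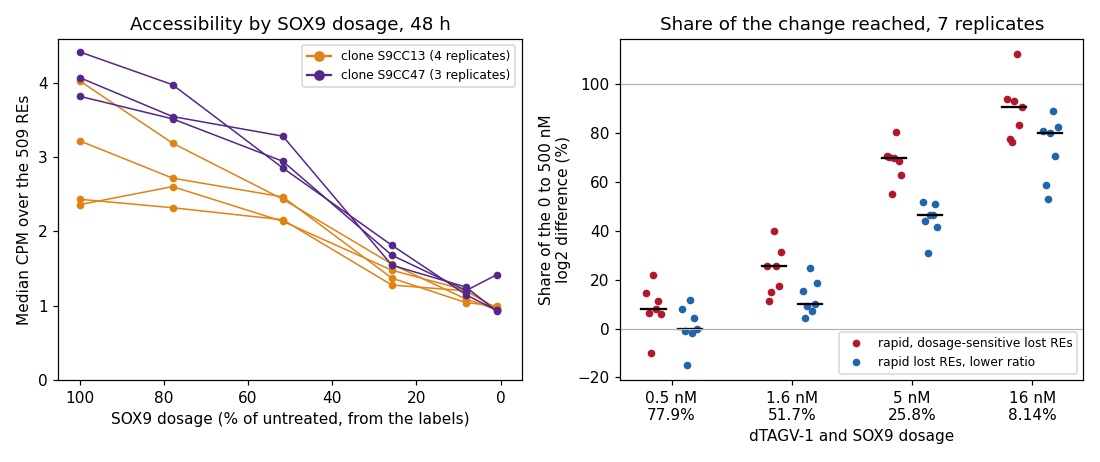
Left, median CPM over the 509 REs (y axis) against SOX9 dosage in percent (x axis), 1 line for each of the 7 tagged replicates at 48 h, coloured by clone. Right, share of the 0 to 500 nM log2 difference reached at each intermediate dose, 1 point for each replicate with the median as a bar: the REs described here reached a median of 69.7% at 5 nM and the other rapid lost REs 46.5%, a gap that the rule itself made.

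As a share of the log2 difference between 0 and 500 nM, the median replicate had lost 8.01% with 0.5 nM and 25.6% with 1.6 nM. It had lost 69.7% with 5 nM and 90.7% with 16 nM. The share with 0.5 nM ran from -10.1%, in S9CC13 R14, to 21.8%. On the CPM scale itself, where a pseudocount plays no part, these 4 doses reached 12.7, 34.0, 80.2 and 94.0% of the change in the library's median. The rule used the 0, 5 and 500 nM libraries, and all 4 shares rest on the 0 and 500 nM ones, so these are descriptions. The steepest step of the series was from 1.6 to 5 nM, between SOX9 labels of 51.7% and 25.8%.

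The 0.5, 1.6 and 16 nM libraries were not used by the rule, although they came from the same 7 replicates. They were tested with edgeR's quasi-likelihood test with Benjamini-Hochberg adjustment over all REs. Between 0.5 and 16 nM, all 509 members were lower at an adjusted p under 0.05, where 8.15% of all REs were (11.7% with the replicate as a block), with a median edgeR log2 fold change of -1.41. The replicate medians of the log2(CPM + 0.5) difference ran from -1.39 to -0.712, with a mean of -1.09 ± 0.24 (SD, n = 7), and 500 members were lower in every replicate. Other REs of the same D500 and CPM range fall into a rapid set under the ratio threshold (1714 REs) and a slower set with a D3 above -0.5 (173 REs). Of these, 1713 and 173 were lower as well, with medians of -1.18 and -0.794 in edgeR, so the call itself did not set the members apart.

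Between 0.5 and 1.6 nM, labelled 77.9% and 51.7% of SOX9, the members moved by less. The replicate medians were below 0 in 7 of 7, from -0.422 to -0.0634, with a mean of -0.21 ± 0.12 (SD, n = 7), against -0.16 in the rapid REs of lower ratio and -0.0050 over all REs. No member passed the adjusted threshold of edgeR's quasi-likelihood test, where 0% of all REs did. At an unadjusted p under 0.05 there were 243 members (47.7%), all lower, and 3.63% of all REs, and DESeq2 called 0 members. The replicates pair the samples, and with the replicate as a block edgeR called 112 members (22.0%) lower, against 0.592% of all REs. R6 was the only differentiation of the dose series with both clones. Once either R6 replicate is left out, differentiation as a term is the same as a replicate block. That fit called 48 members lower and 0.301% of all REs without S9CC13 R6, and 88 and 0.46% without S9CC47 R6. With any of the other replicates left out, the clones of R6 shared a term and 0 members were called. Both comparisons share the 0.5 nM libraries.

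The share of the 0.5 to 16 nM change that was reached at 1.6 nM sets the early against the late part of the response in libraries that the rule did not use. It was 8.91 to 30.5% over the replicates for the members (median 17.4%) and 8.01 to 36.3% for the rapid REs of lower ratio (median 9.95%). For the slower REs it was 7.12 to 56.8% (median 13.8%), with the highest value in S9CC13 R14. The means were 19.12% in the members, 16.05% in the rapid REs of lower ratio and 19.17% in the slower ones. The difference between the members and the rapid REs of lower ratio was above 0 in 6 of 7 replicates. Its median was 3.34 percentage points, with a range of -8.19 to 8.32. The negative difference was that of S9CC13 R14, and without it all 6 lay from 0.896 to 8.32 percentage points, with the rapid REs of lower ratio at 8.01 to 22.4% and the members at 8.91 to 30.5%. This difference was not tested.

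**Figure D2:**
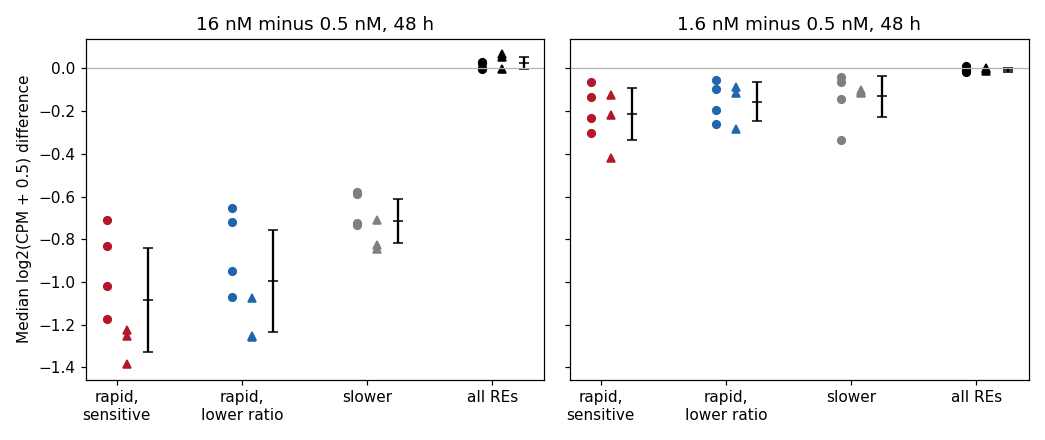
Median log2(CPM + 0.5) difference over each set of REs (y axis) for 16 minus 0.5 nM and 1.6 minus 0.5 nM at 48 h, none of them doses the rule used. Circles are S9CC13 replicates, triangles S9CC47, bars the mean ± SD of 7 replicates. The rapid, sensitive REs were at -1.09 and -0.21, and all REs near 0.

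The median difference between 16 and 0.5 nM was -0.935 ± 0.204 (SD, n = 4) in S9CC13 and -1.29 ± 0.085 (SD, n = 3) in S9CC47, and the replicates of the clones did not overlap. In R6, the only differentiation that held both clones, the values were -1.18 in S9CC13 and -1.23 in S9CC47, so the difference rests on clones in different differentiations, which cannot be told apart. The clone by dose term of edgeR was negative in 482 members and had an unadjusted p under 0.05 in 218 (42.8%, against 5.16% of all REs). Its median was -0.445 in the members and -0.401 in the rapid REs of lower ratio, of which 17 (0.992%) were called. Of the members, 1 passed the adjusted threshold, where 0.0555% of all REs did. It was a promoter RE near the start of NMT1, which encodes an N-myristoyltransferase, at chr17:44957550-44958050 (adjusted p = 0.0252 by edgeR's quasi-likelihood test), named after its value was seen. DESeq2 called none, and leaving out a replicate gave 0 to 23 members. The count was 23 (4.52%, against 0.312% of all REs) without S9CC13 R6 and 10 (1.96%, against 0.0772%) without S9CC47 R5. It was 2 (0.393%, against 0.0594%) without S9CC47 R6, and 0 without S9CC13 R13, S9CC13 R14 or S9CC47 R8.

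Most of the loss seen at 24 h was already present at 3 h. In tagged cells the library median over the members was 7.13 and 5.79 CPM in vehicle (R4 and R5), 1.81 and 1.72 at 3 h and 1.25 and 1.31 at 24 h. The median log2 differences from vehicle were -1.66 in R4 and -1.38 in R5 at 3 h, a value the rule used, and -2.04 and -1.64 at 24 h. At 24 h 468 members (91.9%) lay below their own 3 h level, by a median of -0.32. The members were about as open in WT as in tagged cells in vehicle, at 6.6 to 7.5 CPM, and this level was above the 2.36 to 4.41 CPM of the untreated tagged cells of the dose series. The differentiations of the time course and of the dose series differ except for R5, and the part of this in D3 was not tested.

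WT cells, in which dTAGV-1 has no tag to bind, showed no such loss. In R4 the library medians were 7.5 CPM in vehicle, 7.27 at 3 h and 8.58 at 24 h, and in R5 they were 6.6, 7.19 and 6.63 CPM. No member passed the adjusted threshold of edgeR at 3 h or at 24 h, where 0% of all REs did, and 9 and 16 members had an unadjusted p under 0.05, which is 1.77 and 3.14% of members, near the 2.41 and 3.07% of all REs. Of these 9 and 16 members, 3 and 12 were lower. DESeq2 called none at either time. At 3 h the median edgeR log2 fold change of the members was 0.0103, and it ran from -0.0781 to 0.133 with 1 library left out. At 24 h it was 0.0533, and it ran from -0.0574 to 0.197 with 1 library left out. Set against WT cells at 24 h of 500 nM, in 4 libraries the rule did not use, all 509 members were lower in tagged cells at an adjusted p under 0.05 in edgeR, where 9.4% of all REs were. The median edgeR log2 fold change was -2.49, against -1.94 in the rapid REs of lower ratio and -0.786 in the slower ones. This contrast also holds any difference between the lines that does not need dTAGV-1. In vehicle, the median difference of tagged from WT cells over the members was -0.025 in R4 and -0.207 in R5.

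**Figure D3:**
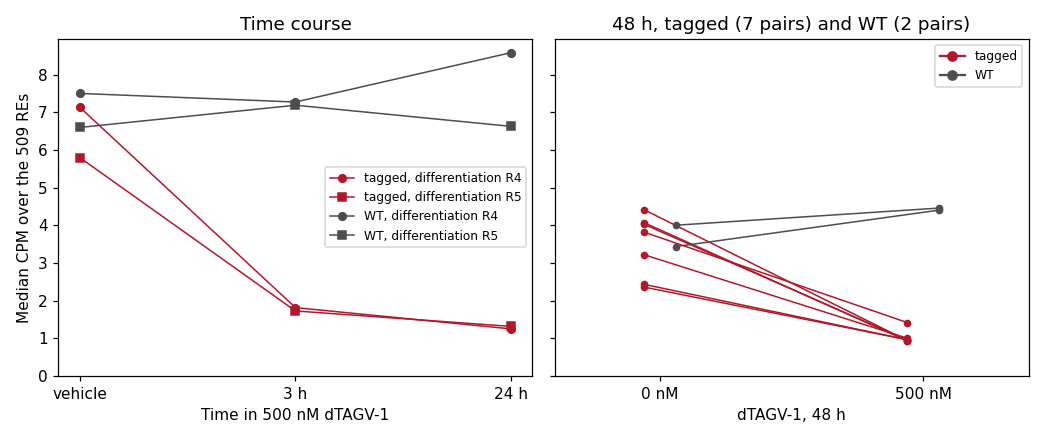
Median CPM over the 509 REs (y axis). Left, vehicle, 3 h and 24 h of 500 nM dTAGV-1 in tagged and WT cells of 2 differentiations. Right, 0 and 500 nM for 48 h, each line joining the libraries of 1 replicate. Tagged cells lay below 2 CPM at 3 h, and WT cells of the time course between 6.6 and 8.58 CPM throughout.

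At 48 h the WT samples went the other way. The library median rose from 3.43 and 4.0 CPM at 0 nM to 4.4 and 4.45 at 500 nM, and the median log2 difference was 0.29 in one differentiation and 0.11 in the other, where the median of all REs was within 0.02 of 0. edgeR called 27 members (5.3%), all higher, where 0.303% of all REs were called, in a fit of 4 samples with differentiation as a term. At an unadjusted p under 0.05 in that fit there were 211 members (41.45%), none of them lower, against 8.28% of all REs. DESeq2, the fit without differentiation and the fit pooled with the tagged 0 and 500 nM samples each called 0. In the rapid REs of lower ratio 43 of 1714 were called higher and 2 lower. The called member with the lowest p lay in an intron of TAF1B, a gene of the RNA polymerase I initiation machinery, at chr2:9896152-9896652. It had 2.54 and 2.67 CPM at 0 nM and 3.44 and 6.28 at 500 nM, with an edgeR log2 fold change of 0.85 (SE 0.145, adjusted p = 4.16e-05). The next were REs in an intron of GMDS, which encodes an enzyme of GDP-fucose synthesis (0.58, SE 0.113, adjusted p = 0.000962), nearest ZNF518B (0.55), at the start of NDE1 (0.80) and nearest MFGE8 (0.71).

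The largest fall among the named REs was in WWP2, a ubiquitin ligase gene that hosts miR-140, a microRNA of cartilage. Its RE at chr16:69799700-69800200 lies within 1000 bases of an inner start site of the gene. It had 1.13 to 5.1 CPM untreated (median 2.83), 1.45 to 3.07 CPM with 0.5 nM (median 2.35) and 1.11 to 2.66 CPM with 1.6 nM (median 1.27). The level then dropped to 0.423 to 0.789 CPM with 5 nM (median 0.478), 0.153 to 0.471 CPM with 16 nM (median 0.261) and 0.131 to 0.994 CPM with 500 nM (median 0.25). The 16 and the 0.5 nM groups did not overlap, and the edgeR log2 fold change was -3.04 (SE 0.22, adjusted p = 2.66e-08). A further WWP2 member at chr16:69924623-69925123, also by a start site, changed by -1.70 (SE 0.15, adjusted p = 1.89e-07). The list of cartilage matrix genes and their SOX partners held 5 members, in or nearest WWP2, SNORC, SOX5 and SOX6. That is 0.982% of the members, against 0.642% of the rapid REs of lower ratio and 0.338% of all REs. All 5 were lower at 16 than at 0.5 nM, as all 509 members were, so this count and those of the lists below add nothing to the call. The RE in an intron of SNORC, a cartilage proteoglycan gene, at chr2:232872061-232872561 fell from a median of 2.48 CPM at 0.5 nM to 1.15 at 16 nM (edgeR log2 fold change -1.23, SE 0.14).

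Neural crest and facial transcription factors were assigned 6 members (1.18%, against 1.17% of the rapid REs of lower ratio and 0.946% of all REs). Among them were members in or nearest EBF1, EYA1, MSX2 and TFAP2B. All 6 were lower at 16 than at 0.5 nM in edgeR. The RE nearest TFAP2B, an AP-2 factor of the neural crest, lay 528 kb from its start at chr6:51349808-51350308. Its median was 2.23 CPM with 0.5 nM, 1.63 with 1.6 nM and 0.496 with 16 nM, with an edgeR log2 fold change of -2.09 (SE 0.19, adjusted p = 2.39e-07) between 16 and 0.5 nM. An RE in an intron of EBF1, at chr5:158727697-158728429, changed by -1.13 (SE 0.13).

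Signalling genes of the BMP, TGF-beta, FGF, WNT and Hedgehog pathways were assigned 5 members, through BMPR1A, GLI3, LEF1, SPRY2 and SPRY4. The share was 0.982%, against 1.11% of the rapid REs of lower ratio and 0.938% of all REs. All 5 were lower at 16 than at 0.5 nM. The intergenic RE 65.3 kb from the nearest start of GLI3, the transcription factor that mostly represses Hedgehog targets, at chr7:41912354-41912854, was the steepest of those named. It ran from 1.29 to 3.07 CPM with 0.5 nM (median 1.9), from 0.838 to 1.93 with 1.6 nM (median 1.67) and from 0.183 to 0.602 with 16 nM (median 0.398), and its edgeR log2 fold change between 16 and 0.5 nM was -2.37 (SE 0.25, adjusted p = 2.32e-06). REs in introns of BMPR1A, a type I BMP receptor, at chr10:86840522-86841022 and LEF1, a transcription factor of the WNT pathway, at chr4:108058659-108059159 changed by -1.57 and -1.43.

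Axon guidance and migration cues, which also steer neural crest cells, held 9 members, in or nearest EFNA5, EFNB2, NRP2, PLXNA2, PLXNA4, SEMA3C, SEMA6A and UNC5C. The share was 1.77%, against 1.52% of the rapid REs of lower ratio and 1.09% of all REs. All 9 were lower at 16 than at 0.5 nM, with a median edgeR log2 fold change of -1.57. NRP2, a co-receptor for class 3 semaphorins, held the RE whose facing cores, 3 bases apart, are shown above, at chr2:205696479-205697311. It had 6.39 to 9.66 CPM with 0.5 nM (median 8.38), 5.65 to 9.57 with 1.6 nM (median 5.99) and 2.53 to 3.04 with 16 nM (median 2.71), and it changed by -1.58 (SE 0.10, adjusted p = 8.56e-09). REs at the start of a non-coding RNA gene within PLXNA2, a plexin that pairs with neuropilins, at chr1:208105673-208106173 and in an intron of UNC5C, a netrin receptor gene, at chr4:95410363-95410863 changed by -2.06 and -1.82.

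The RE nearest EDNRB, which encodes an endothelin receptor of pigment cell and enteric neuron precursors, was the single member assigned to SOXE, glial or melanocyte genes. The share was 0.196%, against 0.233% of the rapid REs of lower ratio and 0.145% of all REs. This RE lies at chr13:77853585-77854085. It had 0.888 to 2.48 CPM at 0.5 nM and 0.229 to 0.6 at 16 nM, which did not overlap, and changed by -2.004 (SE 0.23, adjusted p = 5.37e-06). At 24 h it stood at 0.314 and 0.333 CPM in tagged and at 10.7 and 15.3 CPM in WT cells. The RE in an intron of EDN3, which encodes an endothelin, at chr20:59318867-59319367, named for its facing cores, changed by -1.003 between 16 and 0.5 nM (SE 0.12, adjusted p = 1.13e-05). The list of markers of other cell types (pluripotent, neural, epithelial, muscle) held 0 members, and 0.146% of all REs.

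Of the 6 REs with the lowest p-values between 16 and 0.5 nM, that of NRP2 is given above and the other 5 lay outside these lists. An intergenic RE nearest DAP at chr5:10859388-10860572 changed by -1.68 (SE 0.10, adjusted p = 3.17e-09). A promoter RE of NOTCH1, the receptor gene of the Notch pathway, at chr9:136512258-136513164 had 3.09 to 5.66 CPM with 0.5 nM (median 4.92), 2.42 to 5.21 with 1.6 nM (median 3.77) and 0.916 to 1.7 with 16 nM (median 1.3), and changed by -1.84 (SE 0.11, adjusted p = 4.05e-09). NOTCH1 was assigned 2 members. REs in introns of PLCB4, a phospholipase gene of the endothelin receptor pathway in the facial neural crest, at chr20:9301649-9302149, of TENM4, a teneurin gene, at chr11:79295258-79295758 and of MECOM, a zinc finger factor gene, at chr3:169362286-169362786 changed by -2.44, -2.25 and -1.82.

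**Figure D4:**
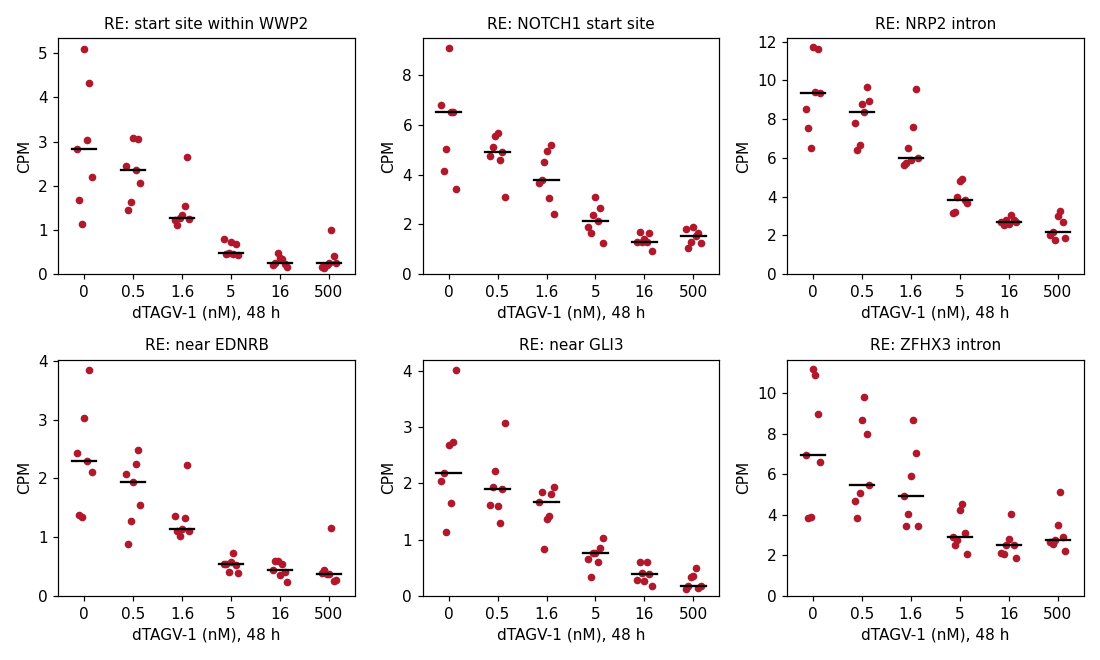
CPM (y axis, each panel with its own scale from 0) of 6 named REs in the 42 tagged 48 h libraries, by dTAGV-1 dose (x axis); points are the 7 replicates of a dose and bars their median. In the RE within WWP2 the median is 2.35 CPM at 0.5 nM and 0.261 at 16 nM.

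The members with the most CPM kept clear signal at full depletion. The RE with the highest mean CPM at 0 nM, in an exon of MYLK2 outside its coding part at chr20:31833351-31834619, had 45.8 to 64.9 CPM untreated and 43.4 to 58.2 with 0.5 nM. It had 15.8 to 29.5 CPM with 16 nM and 18.2 to 29.0 with 500 nM. An intergenic RE nearest SHC4, a signalling adaptor gene, at chr15:48975681-48976466 had 27.9 to 52.1 CPM at 0.5 nM and 12.8 to 18.3 at 16 nM. They changed by -1.08 (SE 0.11) and -1.27 (SE 0.11) in edgeR between 16 and 0.5 nM. Those of MTSS2, LEMD1, SRSF3 and TOM1L2, the next 4, changed by -1.55, -1.16, -0.78 and -0.91. By CPM at 0 nM, the median fold change was -1.64 in the 198 members under 3 CPM and -1.16 in the 47 members at 10 CPM or more.

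The members with the highest D5/D500, from 0.933 to 0.994, had 2.16 to 7.47 CPM at 0 nM. The RE nearest ABCA8 had a median of 2.31 CPM with 0.5 nM and 1.61 with 1.6 nM, and of 0.826 with 5 nM and 0.687 with 16 nM. That in an intron of ZFHX3, a homeobox zinc finger gene, at chr16:73000013-73000990, had 5.46, 4.92, 2.9 and 2.52 CPM at the same doses. The closeness of their 5 and 500 nM levels was fixed by the choice of these REs.

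Members lay mostly away from gene starts. The centre of 228 (44.8%) lay in an intron of a protein-coding gene, of 145 (28.5%) between genes, and of 64 (12.6%) within 1000 bases of a start site, whereas 22.7% of all REs were at a start site. The median distance to the nearest protein-coding start was 24.7 kb, against 30.5 kb in the rapid REs of lower ratio and 18.6 kb over all REs. They were spread over 23 chromosomes and 502 genes by nearest start or gene body, and no gene had more than 3 (NAV1, PSMG1 and VXN). Of the 509 members, 51 had another within 100 kb, and 21 were on chromosome 8 and were counted but not named.

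Over REs of 501 bases, the commonest width, 320 of 407 members (78.6%) had at least 1 of the 6-letter cores on either strand, against 76.2% of the rapid REs of lower ratio, 50.4% of the slower ones and 46.9% of all 123778 REs of that width. At least 2 cores were found in 39.8% of members, 34.8%, 11.7% and 14.7%. Facing 6-letter cores 3 to 5 bases apart were in 10 members (2.46%), in 2.96% of the rapid REs of lower ratio, in 0 of the 137 slower ones and in 0.203% of all, while cores facing away from each other at those gaps were in 3 members (0.737%), in 0.304% of the rapid REs of lower ratio and in 0.0735% of all. Median GC content was 47.1% in members and 47.5% in all REs.

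With the shorter cores ACAAA and ACAAT, the first letters of the longer ones, whose gaps of 5 to 7 bases match gaps of 3 to 5 between the longer ones, a facing pair was in 39 members of 501 bases (9.58%), in 10.3% of the rapid REs of lower ratio and in 1.42% of all REs. The gaps were spread differently. A gap of 7 bases was the commonest in the members, in 19 of 407 (4.67%), and a gap of 6 in the rapid REs of lower ratio, in 68 of 1317 (5.16%). At a gap of 6 there were 11 members (2.7%), and at 7 there were 30 rapid REs of lower ratio (2.28%). The counts are small, and the difference between the sets was not tested.

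**Figure D5:**
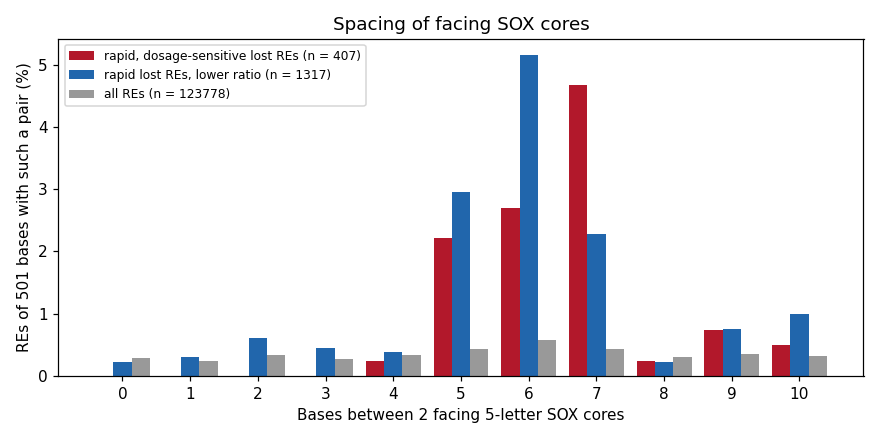
Percent of REs of 501 bases (y axis) with 2 facing 5-letter SOX cores at each number of bases between them (x axis), in 3 sets of REs. The pairs concentrate at 5 to 7 bases in both rapid sets, with the highest bar at 7 for the REs described here and at 6 for the other rapid REs.

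Members with and without cores had close medians. All members had passed the same limits on D500 and D5/D500, which narrows the range these medians could take. The medians therefore do not show whether cores matter for the dose response. The 53 members of any width with a facing pair of the short cores at those gaps had a median log2(CPM + 0.5) difference between 16 and 0.5 nM of -1.13, the 359 with a 6-letter core and no such pair -1.08, and the 97 with neither -1.13. Between 1.6 and 0.5 nM the medians were -0.23, -0.22 and -0.21. Words of other factors were about as common in members as in all REs of that width: TFAP2 (GCCNNNGGC) in 22.4% against 23.1%, the NR2F word AGGTCA in 31.4% against 33.9%, the homeodomain word TAATTA in 13.8% against 13.6%, the TEAD word GGAATG in 31.4% against 30.9% and the AP-1 word TGANTCA in 18.2% against 15.5%. The E-box CATCTG, of the kind TWIST1 binds, was in 48.4% of members, 49.1% of the rapid REs of lower ratio, 55.5% of the slower ones and 42.1% of all REs. The NR2F word was less common in members than in the rapid REs of lower ratio (37.1%) and the slower ones (43.8%). For the TFAP2, homeodomain, TEAD and AP-1 words these sets had 21.6, 13.9, 33.5 and 15.8%, and 25.5, 10.2, 31.4 and 10.9%. Both strands were searched, a match is a word in these letters, and no test of these shares was made.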

How the data were processed

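ATAC-seq reads of 58 samples were counted by the authors over 151457 REs on hg38, and the deposited values are raw counts, not normalized. The submitters' processing notes name Bowtie2 2.4.1, SAMtools 1.10, deepTools 3.5.0, MACS2 2.2.7.1 and bedtools. All 58 columns matched a sample. Total counts ran from 22.9 to 81.0 M a sample. 3 columns named S9CC47 matched samples titled S9CC13 (R5 time course), so the clone was not used there. For S9CC13 R14 the dose labels of the 0 and 0.5 nM samples contradict their titles, and the titles were used.

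From the counts, CPM was computed on column sums and log2 values with a pseudocount of 0.5. Each comparison was fitted over all REs with edgeR 4.0.16 (R 4.3.3; TMM, quasi-likelihood test, differentiation as covariate, no filter, Benjamini-Hochberg adjustment, threshold 0.05). The test was run on simulated counts of the 16 and 0.5 nM samples, where it called 197 of 200 REs whose level was multiplied by 0.5, among 151457. There were 11 false calls. The simulated counts had 1 dispersion (0.03) for all REs and no differences between differentiations or replicates, and only REs above a minimum mean count were changed. The simulation therefore does not cover the replicate differences of the real samples. The clone term was fitted with the replicate as block. DESeq2 1.42.0, other scaling, a filter, a replicate block and leaving out samples were the alternatives. Same-numbered 16 and 0.5 nM samples deviated together (r = 0.639 to 0.861 in 7 pairs), so the replicates pair the samples. No 2 samples of a group agreed within counting noise. Samples are differentiations of 1 cell line, and the dose series also holds 2 clones of it. With differentiation as a covariate, p-values measure the spread left once the level of each differentiation is taken out. For the clone term, and where a replicate block is named, the level of each replicate is taken out instead. Genes and start sites are from GENCODE v44.

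Members, lists and rules were chosen with earlier results of these data known. REs were named by a rule: the 6 with the highest CPM at 0 nM, D5/D500 or lowest p at 16 against 0.5 nM, up to 3 a gene list by D500, 6 with facing cores, those next to a threshold and up to 5 called in WT cells. Lists are by nearest protein-coding start or gene body. 1 named RE is not reported here.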

Additional observations from a re-analysis of the deposited data

Results flagged for a closer look

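In a group of 7 samples, a sample was marked when its gap to the next was large for the range of the group by Dixon's criterion. Of 86 groups examined 9 had such a sample, where chance gives about 1 in 20. In the 500 nM group the median CPM of the members was 1.42 in S9CC47 R5 and 0.928 to 0.999 in the other 6.

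Between 16 and 0.5 nM, S9CC47 R8 stood apart in 4 named REs, with log2 differences of -2.55 at the RE in TENM4 (the others -1.72 to -1.47), -2.1 at RUBCNL (-1.32 to -0.855), -2.82 at TAF1B (-1.66 to -1.03) and -2.21 nearest ZNF518B (-1.19 to -0.438). S9CC13 R13 stood apart at the RE in EBF1, at -0.245 (-1.44 to -0.929). Between 1.6 and 0.5 nM, S9CC13 R13 had 0.459 at the same EBF1 RE (-0.407 to -0.159), S9CC47 R8 had -0.298 at TOM1L2 (-0.13 to -0.00944) and S9CC47 R6 had 0.278 nearest TFAP2B (-0.353 to -0.109).

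The members moved in opposite directions in tagged and WT cells between 0 and 500 nM at 48 h: the mean of the replicate medians was 0.204 in the 2 WT differentiations, and the replicate medians of tagged cells ran from -1.69 to -0.952. This difference was not tested.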

How the results depend on the processing

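Over 113 alternative values, 88 kept their direction and stayed within 1.5 times the count or 1 SD of the median. All 509 members were lower at 16 than at 0.5 nM under the alternatives run except without differentiation as a term, with 497, and leaving out a replicate gave 509 to 509. Between 1.6 and 0.5 nM the replicate block gave 112 in place of 0, and leaving out a replicate gave 0 to 88. The calls came only when an R6 replicate was left out, which turns differentiation into a replicate block. For 16 against 0.5 nM the block kept the 509 members, and the lower calls over all REs rose from 12337 to 17681. The block was run as an alternative in the 16 against 0.5 nM and 1.6 against 0.5 nM comparisons alone. In WT cells at 48 h the 27 calls became 0 with DESeq2, 0 with no block and no differentiation and 0 when fitted with the tagged samples. Samples were left out in that pooled fit alone, which had no call to lose and gave 0 to 0, and which assumes that a lone sample varies like the other groups. Leaving out a sample gave 0 to 3 calls in WT cells at 3 h, 0 to 8 at 24 h, and 498 to 509 members lower in tagged than WT cells at 24 h, where 346 were called without differentiation as a term. The clone term gave 0 calls with DESeq2 and 0 to 23 without a replicate, where 23 was 4.52% of members against 0.312% of all REs. The number of members was 1106 with a D5/D500 threshold of 0.5 and 174 with 0.7, 466 with a pseudocount of 1 (340 shared) and 449 to 653 without a replicate. The median differences ran from -1.15 to -1.04 (16 minus 0.5 nM) and from -0.239 to -0.179 (1.6 minus 0.5 nM) without a replicate. The difference in the share reached at 1.6 nM had a median of 5.28 percentage points without S9CC13 R14, chosen after seeing the data, and 3.34 with it. The cause of these shifts was not tested. Depth limits the weak members: the median member had as few as 22 reads in a library.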
